A study of Mus musculus with 21 samples.

Results

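The 8 Ldb1-KO libraries are total RNA profiles of β-cells from mice in which the LIM-domain binding protein gene Ldb1 was made deletable in adult β-cells, and they were compared here only with each other. They were all the libraries that the sample titles place in that group, 8 of 18 RNA libraries and of 21 samples in the series. The labels give the genotype as Ldb1L/L with Rosa26LsLeYFP/ LsLeYFP and MIP-CreERTm, on a mixed SV/129 and C57Bl/6 background. MIP-CreERTm is a tamoxifen-inducible Cre under the control of an insulin promoter, so deletion and the YFP label are both limited to cells in which that promoter and the drug acted. Male mice received 5 gavages of tamoxifen at 150 µg per g from postnatal day 28, repeated from day 35, and YFP-marked cells were sorted at day 56. The labels do not say whether the libraries came from separate mice or from pools, so each p-value measures only the spread between these 8 libraries, which may be technical in part.

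LDB1 has no DNA-binding domain of its own. It dimerises and bridges LIM-homeodomain factors such as ISL1, together with LMO and SSBP proteins, into complexes at enhancers and promoters. In the islet, LDB1 and ISL1 are known for maintaining the expression of genes of the mature β-cell. The 4 genes used here as a measure of that state are Ins1, which encodes an insulin, Slc2a2, the glucose transporter GLUT2, Ucn3, the hormone urocortin 3 that marks mature β-cells, and Glp1r, the receptor for the incretin GLP-1. The question was how far the libraries of one knockout group differ, and which genes order them as the remaining Ldb1 signal does or as the mean of these 4 genes does.

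Of 21913 genes in the table, 11690 had a mean value of at least 5 over the 8 libraries, where the value is 2 to the power of the deposited log2 number, minus 1. Hhex lay just inside that limit with a mean of 5.0004 and Mzf1 just outside with 4.998. All levels below are log2(value + 1) as deposited. They are not scaled to gene length, so levels are compared only within a gene.

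Several libraries stood apart from the rest before any gene was considered. Pearson correlations between libraries over the genes tested ran from 0.908 for replicates 3 and 8 to 0.979 for replicates 5 and 7. The first principal component held 42.6% of the variance and set replicates 3, 4 and 1, with scores of -53.3, -30.2 and -18.9, against replicate 8 at 39.5. Those 3 libraries were also judged the shallower ones, from the mean step over the lowest 20 distinct values above 0 of each library. It was 1.22 to 1.44 normalized units in them and 0.71 to 0.94 in the other 5. The step is not the exact value of 1 read, and some values above 0 lie below it. The second component held 16.6% and set replicate 1, at 46.2, apart from all others, which lay between -15.2 and 4.09. Its scores had a Pearson r of -0.874 with Ldb1, for which replicate 1 was the lowest library. The component before it had an r of -0.119 with Ldb1, and the component after it 0.066. How far the r of -0.874 rests on replicate 1 was not tested. The third component set replicate 2 apart, at -34.7. Replicate 3 was the highest or the lowest library for 45.0% of genes, replicate 8 for 40.1% and replicate 1 for 26.3%. The other 5 had shares of 13.9% to 19.0%. A gene has 1 highest and 1 lowest among 8 libraries, so replicate 1 lay near an even share by this measure. The 2 depth classes hold 3 and 5 libraries, too few for a correlation within each, and the results below are therefore also given with depth as a covariate where that changes them.

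The sorted cells carried the defining transcripts of β-cells in every library. Iapp, the amyloid peptide co-secreted with insulin, lay between 17.51 and 18.29, and Ins2 between 13.66 and 15.99. Values at this end of the table fall on a few shared steps, and 4 of the libraries list Ins2 at the same 15.99. Levels and SDs of Iapp, Ins2 and Ins1 therefore follow the ranks of these genes within each library. Ins1 and Ins2 are similar in sequence, and reads that fit both could be split between the pair. How such reads were assigned is not described in the sources used here. Pdx1, the β-cell homeodomain factor, lay between 6.05 and 6.75. Mafa, a factor of mature β-cells, lay between 1.00 and 4.08. Markers of endothelium, immune cells, mesenchyme and glia were sparse. Col1a1 was at 0 in all 8 libraries, Cdh5 and Sox10 in 7 and Pecam1 in 5.

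Ldb1 remained detectable in all 8 libraries and varied by 1.30 on the log2 scale, with an SD of 0.42. Its levels were 5.58, 6.60, 6.88, 6.35, 6.79, 6.08, 6.55 and 6.34 in replicates 1 to 8. Replicate 1 was lowest, followed by replicate 6, and replicates 3 and 5 were highest. The row holds 1 value for the whole gene and does not resolve the deleted exons. Transcript left in deleted cells and transcript from cells that escaped deletion therefore cannot be told apart, and in bulk RNA the same holds for fewer cells of a type and less RNA per cell. Ldb1 showed no relation to depth past the threshold (Pearson r = -0.244, Spearman rho = 0.0476 with the mean step, exact permutation p = 0.577 and 0.935, adjusted over 4 relations 0.770 and 0.935). Against the number of genes above 0, which ran from 13624 to 14129, r was 0.557 and rho 0.286 (exact permutation p = 0.150 and 0.501, adjusted 0.600 and 0.935). Without replicates 1 and 3, those farthest from the median of Ldb1, these Pearson correlations were 0.0339 and 0.348.

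The 4 β-cell genes did not order the libraries alike. Ins1 was 12.42, 15.02, 12.67, 12.14, 13.49, 13.49, 13.66 and 13.96 in replicates 1 to 8. Slc2a2 was 8.81, 9.26, 8.70, 7.70, 7.35, 6.92, 7.31 and 7.73. Replicate 2 was highest for both, whereas replicate 1 was among the lowest for Ins1 and the second highest for Slc2a2. Ucn3 was 6.06, 7.80, 7.05, 7.38, 6.95, 6.37, 7.06 and 6.86. Glp1r was 7.28, 7.98, 7.22, 6.77, 6.77, 7.31, 6.995 and 6.75. Again replicate 2 was highest for both, and replicate 1, lowest for Ucn3, was near the top for Glp1r. The mean of the 4 genes was 10.02 in replicate 2 and between 8.50 and 8.91 in the other 7 libraries.

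**Figure D1:**
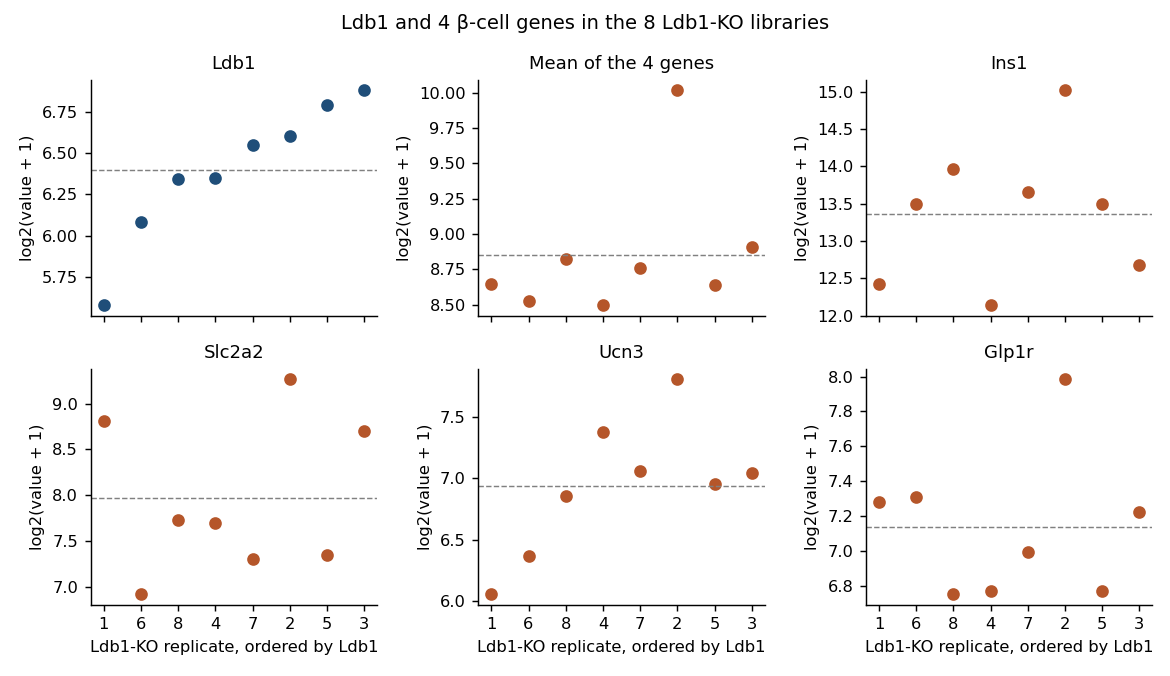
Levels of Ldb1, of Ins1, Slc2a2, Ucn3 and Glp1r and of the mean of these 4 genes, as log2(value + 1), with 1 point per Ldb1-KO library in order of Ldb1 from lowest to highest. The dashed line is the mean of 8 libraries, each panel has its own vertical range that does not start at 0, and replicate 2 is highest for all 4 genes.

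The 4 genes showed little common order. Each gene was set against the mean of the other 3, and Spearman's rho was -0.0359 for Ins1, -0.0476 for Slc2a2, 0.0714 for Ucn3 and -0.0476 for Glp1r (exact permutation p of 0.882 to 0.946, adjusted over 4 relations 0.946). Pearson's r was 0.384, 0.349, 0.441 and 0.690 in the same order (exact permutation p of 0.101 to 0.447, adjusted 0.402 to 0.447). Without the 2 libraries farthest from the median of the other 3, replicate 2 being 1 of them each time, r was -0.718, -0.298, -0.110 and -0.0620. Over the 6 pairs of genes, rho lay between 0.0714 and 0.286. In single pairs r moved either way when the 2 libraries farthest from the median were left out: for Ins1 and Slc2a2 it went from 0.113 to -0.823, for Slc2a2 and Ucn3 from 0.271 to 0.496, and for Ins1 and Ucn3 it was 0.441 and 0.455. In these libraries the 4-gene mean sets replicate 2 apart from the others and orders the others little.

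Libraries with more Ldb1 signal did not hold more of the 4-gene mean beyond the spread between libraries. Pearson's r was 0.317 (exact permutation p = 0.394, adjusted over 5 relations 0.760) and Spearman's rho 0.429 (exact permutation p = 0.299, adjusted 0.748). Without replicates 1 and 3, r was 0.353. Ucn3 had the highest correlation of the 4 genes, with r = 0.712 (exact permutation p = 0.0491, adjusted 0.246) and rho = 0.619 (exact permutation p = 0.115, adjusted 0.575), and r = 0.530 without replicates 1 and 3. The other 3 genes had r of 0.312 for Ins1, -0.0275 for Slc2a2 and -0.0747 for Glp1r, with rho of 0.180, 0.119 and -0.119 (exact permutation p of at least 0.456, adjusted at least 0.760). Without replicates 1 and 3 their r was 0.284, 0.354 and 0.00172.

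Across the genome, no gene followed Ldb1 past the threshold. Limma, with a slope of each gene on Ldb1 and Benjamini-Hochberg adjustment, called 0 of 11689 genes (0%), with a smallest adjusted p of 0.433. Exact permutation of Spearman's rho also called 0, with a smallest adjusted p of 0.677. A single gene at the smallest p that 8 libraries allow, 4.96e-05, would have an adjusted p of 0.58, so that test could call genes only in numbers. At an unadjusted p under 0.05, limma counted 597 genes (5.11%), 276 with a positive slope (2.36%) and 321 with a negative one (2.75%), and the rank test 766 (6.55%), 364 positive (3.11%) and 402 negative (3.44%). Spearman's rho had a median of -0.0238 and quartiles of -0.333 and 0.310, and 333 genes had a rho of at least 0.8 in size. With depth as a covariate, limma called 22 of 11689 genes, 5 with a positive and 17 with a negative slope. In that fit the share of all genes at an unadjusted limma p under 0.05 was 16.3%, against 5.11% without the covariate. The calls thus came with a shift over all genes. Those that are named below are given with that condition.

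**Figure D2:**
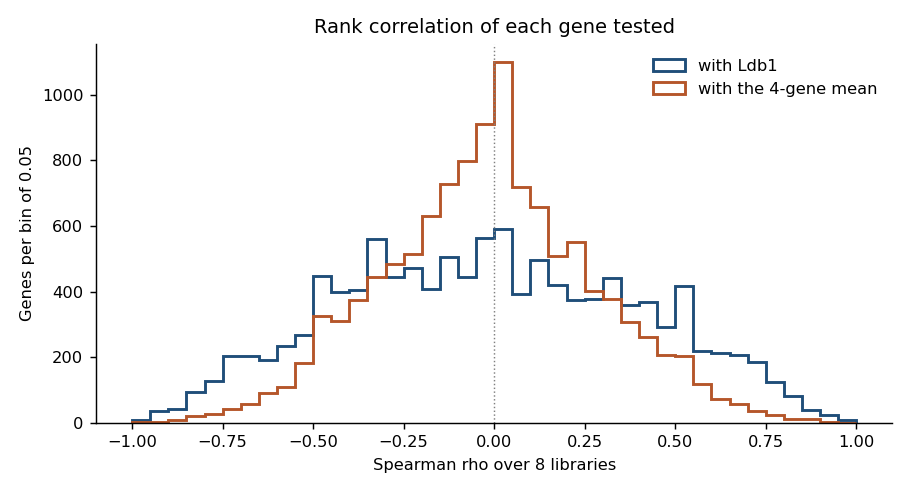
Number of genes per bin of 0.05 of Spearman's rho over the 8 libraries, with Ldb1 in blue and with the mean of Ins1, Slc2a2, Ucn3 and Glp1r in orange. The quartiles are -0.333 and 0.310 with Ldb1 and -0.214 and 0.168 with the 4-gene mean.

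The genes with the smallest limma p and a positive slope on Ldb1 were Lrrn3, Jam2, Scd2, Sfi1, Rab3b, Shisa2, Zfp97 and Comtd1, and none passed adjustment (adjusted p of 0.504 to 0.523). Lrrn3, a leucine-rich repeat membrane protein, was 1.75, 4.01, 4.33, 3.80, 3.83, 2.86, 3.78 and 3.45 in replicates 1 to 8. Its slope was 1.88 ± 0.39 (SE, n = 8 libraries) log2 units per log2 unit of Ldb1 by limma, with an adjusted p of 0.504 and a rho of 0.952. Its order of libraries was close to that of Ldb1, with replicates 1 and 6 lowest and replicate 3 highest. Rab3b, a GTPase of regulated secretion, was 4.25 in replicate 1 and 5.32 to 6.05 in the others, with a rho of 0.905. Jam2, a junctional adhesion molecule, was 2.23 in replicate 1, 3.43 in replicate 6 and 5.48 in replicate 3. It had a slope of 2.17 and was called with depth as a covariate (slope 2.31 ± 0.42, limma adjusted p = 0.0403). Scd2, a stearoyl-CoA desaturase, spanned 6.97 to 8.14. Shisa2 and Comtd1 were both at 1.03 in replicate 1 and at 2.73 or more elsewhere. Cd68, Pecam1 and Rps13 had the same 1.03 in replicate 1, so Shisa2 and Comtd1 lay near the floor in that library.

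The genes with the smallest limma p and a negative slope were Glo1, Rspo4, Cd97, Pdk1, Slc5a10, Adora3, Ttr and Ggh, again none past adjustment (adjusted p of 0.433 to 0.504). Glo1, the glyoxalase that detoxifies methylglyoxal, was 8.78, 7.84, 7.42, 7.78, 7.57, 8.48, 7.72 and 7.97 in replicates 1 to 8. Its slope was -1.07 ± 0.17 (SE, n = 8 libraries) with a limma adjusted p of 0.433 and a rho of -0.929. Replicates 1 and 6, lowest for Ldb1, were highest for Glo1. Rspo4, a secreted enhancer of WNT signalling, was 7.57 in replicate 1 and 4.69 to 5.82 elsewhere. Cd97, an adhesion receptor, was 6.31 in replicate 1, 5.61 in replicate 6 and 4.53 to 5.29 in the others. For both, r was -0.950 and -0.963 without replicates 1 and 3. Pdk1, a kinase that restrains mitochondrial pyruvate dehydrogenase, was 9.39 in replicate 1 and 7.73 to 8.37 elsewhere. Adora3, an adenosine receptor, had a rho of -0.929. With depth as a covariate, Rspo4, Glo1, Pdk1, Cd97 and Adora3 were called with a negative slope (limma adjusted p of 0.0257 to 0.0460).

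For other genes of this set the correlation was small without replicates 1 and 3. Slc5a10, a sodium-coupled sugar transporter, was 9.73 in replicate 1 and 3.58 to 5.19 in the others. Its slope was -4.13 with 8 libraries and -1.18 without replicate 1, and its r was -0.393 without replicates 1 and 3. Ttr, the thyroid hormone carrier transthyretin that α-cells and β-cells express, was 15.66 in replicate 1 and 12.29 to 13.75 elsewhere, and its r was -0.0326 without those 2 libraries. Over all genes, the share at an unadjusted limma p under 0.05 was 5.11% with 8 libraries, 9.83% without replicate 1 and 2.88% without replicates 1 and 3.

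**Figure D3:**
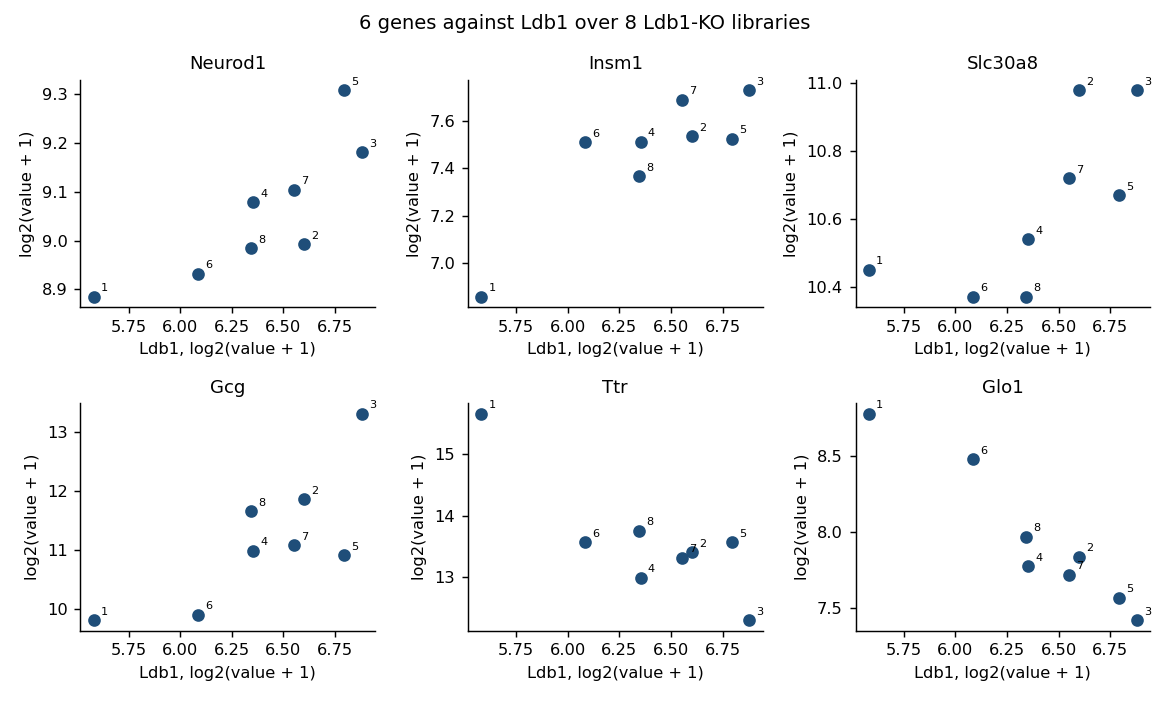
Level of Neurod1, Insm1, Slc30a8, Gcg, Ttr and Glo1 against the level of Ldb1, both as log2(value + 1), with 1 numbered point per Ldb1-KO library and axes that do not start at 0. Replicate 1 lies far to the left in each panel, and Glo1 runs from 8.78 there to 7.42 in replicate 3.

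Most genes of β-cell identity and most islet transcription factors had a positive rho with Ldb1. None of the members of either list passed adjustment, and each count is read beside the median rho of -0.0238 over all genes. Of 24 mature β-cell genes, 19 had a positive and 5 a negative rho with Ldb1, with a median of 0.286. At an unadjusted limma p under 0.05, 5 had a positive slope, namely Ucn3, Nkx6-1, Kcnj11, Slc30a8 and Gipr (adjusted p of 0.753 to 0.941), beside 2.36% of all genes. Slc30a8, the zinc transporter of insulin granules, was 10.45, 10.98, 10.98, 10.54, 10.67, 10.37, 10.72 and 10.37 in replicates 1 to 8, with a rho of 0.838. Nkx6-1, a homeodomain factor of β-cells, was 5.78 in replicate 1 and 6.28 to 6.76 elsewhere, with a rho of 0.643. Of 21 islet transcription factors, 14 had a positive and 7 a negative rho, with a median of 0.429, and Nkx6-1, Insm1 and Mlxipl had an unadjusted limma p under 0.05 (adjusted p of 0.726 to 0.842). The medians were 0.261 and 0.371 without replicates 1 and 3.

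Among these factors, Neurod1, a basic helix-loop-helix activator of insulin transcription, had the highest rho, at 0.905. Its levels were 8.88, 8.99, 9.18, 9.08, 9.31, 8.93, 9.10 and 8.98, a span of less than 1 log2 unit, and its limma adjusted p was 0.956. Insm1, a zinc-finger repressor of endocrine cells, was 6.86 in replicate 1 and 7.37 to 7.73 in the others, with a rho of 0.881 and an r of 0.332 without replicates 1 and 3. Myt1, another zinc-finger factor of islet development, had a rho of 0.738. Pdx1 had a rho of -0.286. The partners of LDB1 showed no common order. Of 8 tested LDB, LMO, SSBP and LIM-homeodomain genes other than Ldb1, 3 had a positive and 5 a negative rho, with a median of -0.179 and 0 at an unadjusted limma p under 0.05. Isl1 was 9.88 in replicate 1 and 10.24 to 11.04 elsewhere with a rho of 0.286, and Ssbp3, a single-stranded DNA binding partner of LDB1, lay between 7.58 and 8.12 with a rho of -0.357.

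Most genes of energy metabolism and of protein synthesis had a negative rho with Ldb1, and none of them passed adjustment. Of 47 nuclear oxidative phosphorylation genes, 44 had a negative rho with Ldb1 and 3 a positive one, with a median of -0.357. Of 15 glycolysis genes, 12 were negative and 3 positive, with a median of -0.310. Of 41 ribosomal protein genes, 36 were negative and 5 positive, with a median of -0.286, and of 29 unfolded protein response genes 24 were negative and 5 positive, with a median of -0.262. Without replicates 1 and 3 the medians were -0.429, -0.143, -0.371 and -0.371 in this order, beside -0.0857 over all genes. At an unadjusted limma p under 0.05 these lists held 3, 3, 2 and 1 members with a negative slope, beside 2.75% of all genes. Ndufa4, a mitochondrial respiratory chain subunit, was 8.63, 8.26, 7.80, 8.16, 7.98, 8.38, 8.02 and 8.65 in replicates 1 to 8, with a rho of -0.857. Replicate 3 was lowest, and replicates 8 and 1 highest. Rpl30, a protein of the large ribosomal subunit, was 7.59 in replicate 1 and 5.91 in replicate 3, with a rho of -0.833. Gpi1 and Eno1, both glycolytic enzymes, had a rho of -0.810. Sel1l, of endoplasmic reticulum degradation, spanned 9.68 to 10.14 with a rho of -0.810. Rps13 ran opposite to its list with a rho of 0.707, but it was low throughout, from 1.03 in replicate 1 to 4.16.

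The same lists varied with the first component, the one that went with depth. The median r with its scores was 0.855 for the oxidative phosphorylation genes, 0.827 for glycolysis, 0.745 for clustered histone genes, 0.647 for ribosomal proteins and 0.624 for the unfolded protein response. That component in turn went with the length of genes. When 11621 genes were split into deciles by their span in RefSeq's annotation of GRCm38.p6, the median r with the first component was 0.51 in the shortest decile and -0.586 in the longest. The median rho with Ldb1 went from -0.19 to 0.19 over the same deciles. The median member of the oxidative phosphorylation list lay in decile 2, that of the ribosomal list in decile 1, that of glycolysis and of the unfolded protein response in decile 4 and that of the islet transcription factors in decile 5. The part of gene span and depth in the list counts was not tested. With depth as a covariate, Gpi1, Eno1 and Rpl30 were called with negative slopes of -1.10, -1.78 and -1.15 (limma adjusted p of 0.0388 to 0.0450).

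**Figure D4:**
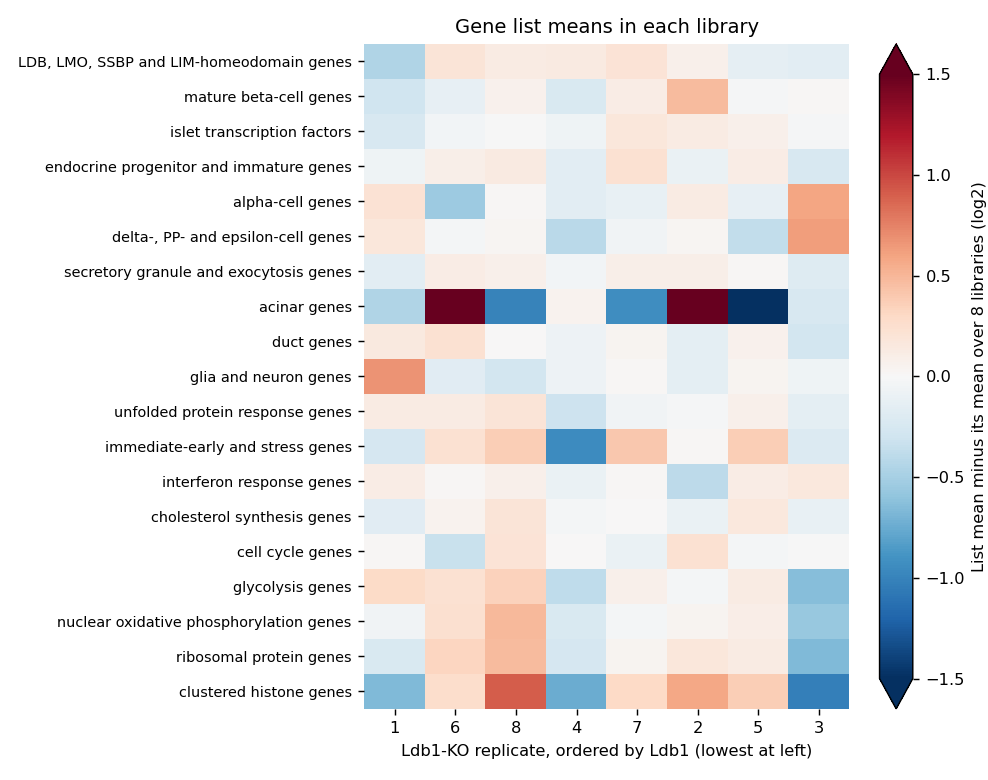
Mean log2 level of the tested members of each gene list in each Ldb1-KO library, minus the list's mean over the 8 libraries, with libraries ordered by Ldb1 from lowest at left and colour running from blue (lower) to red (higher) in log2 units. The acinar mean is highest in replicate 2 and lowest in replicate 5, and replicate 3 is low for oxidative phosphorylation and ribosomal proteins. Lists with 2 or fewer tested members are left out.

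Transcripts of the other islet hormones varied between libraries as well. Gcg, the glucagon gene of α-cells, was 9.81, 11.86, 13.31, 10.99, 10.92, 9.91, 11.09 and 11.66 in replicates 1 to 8. Replicates 1 and 6 were lowest and replicate 3 highest, as for Ldb1. Its slope on Ldb1 was 2.08 ± 0.53 (SE, n = 8 libraries), with a limma adjusted p of 0.536, a rho of 0.690 and an r of 0.519 without replicates 1 and 3. Of 7 tested α-cell genes, 4 had a positive and 3 a negative rho with Ldb1, with a median of 0.381, and Gcg and Ttr lay on opposite sides. The α-cell factor Irx2 spanned 2.08 to 4.76. The summed value of the α-cell list ran from 27790 in replicate 2 to 76280 in replicate 1, where Ttr was highest. Sst, the somatostatin gene of δ-cells, spanned 9.27 to 10.65, was highest in replicate 3, and had a rho of 0.190 with Ldb1. The list of δ-, PP- and ε-cell genes had 6 positive and 4 negative members and a median of 0.0476. Its summed value ran from 1789 in replicate 5 to 3336 in replicate 3. Whether other hormone cells in the sort contributed to these differences was not tested.

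The remaining lists gave medians between -0.264 and 0.185 with Ldb1. Of 24 acinar genes, 18 had a negative and 6 a positive rho, with a median of -0.107. Of 9 duct genes, 7 were negative, with a median of -0.264, and Spp1, the secreted phosphoprotein osteopontin, was 8.76 in replicate 1, 8.10 in replicate 6 and 6.88 to 7.49 elsewhere. The median was -0.143 for 29 secretory granule and exocytosis genes, -0.0833 for 22 clustered histone genes, 0 for 19 interferon response genes, 0.0238 for 19 endocrine progenitor and immature genes, 0.0476 for 23 cholesterol synthesis genes, 0.0833 for 20 cell cycle genes and 0.143 for 23 immediate-early and stress genes. Within them, Cadps, a priming factor of granule exocytosis, had a rho of 0.810, and Vamp2, a vesicle fusion protein, one of -0.738. Cartpt, a peptide precursor, was highest in replicate 1 at 5.12 and lowest in replicate 3 at 2.85, with a rho of -0.754. Only 4 of 9 glia and neuron genes, 2 of 15 immune genes, 1 of 10 endothelial genes and 0 of 14 mesenchyme genes of the table reached the minimum mean. Their medians were 0.185 for glia and neuron, -0.0772 for immune and -0.262 for the single endothelial gene, Esam.

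No gene followed the 4-gene mean past the threshold either. Limma called 0 of 11686 genes (0%), with 183 (1.57%) at an unadjusted p under 0.05, 60 with a positive slope (0.513%) and 123 with a negative one (1.05%). Exact permutation of rho called 0, with 142 (1.22%) at an unadjusted p under 0.05, 64 positive (0.548%) and 78 negative (0.667%), and the smallest adjusted p was 1.00 with both tests. The genes with the smallest p were largely those in which replicate 2 differed from the other 7 libraries. G6pc2, the islet glucose-6-phosphatase subunit, was 12.61 in replicate 2 and 11.15 to 12.10 elsewhere, with a rho of 0.833 and an r of 0.788 without replicates 2 and 3. Mafa was 2.23, 4.08, 2.17, 1.00, 2.20, 1.36, 2.79 and 2.76 in replicates 1 to 8, with a slope of 1.66 ± 0.51 (SE, n = 8 libraries, limma adjusted p = 1.00), a rho of 0.738 and an r of 0.959 without those libraries. For both, r thus stayed positive among the other libraries, but the slope of Mafa was 3.39 without replicate 2 and 5.50 without replicates 2 and 3. Mafa also lay near the floor, with a mean value of 5.118 against the minimum of 5. Its 1.00 in replicate 4 was the level of Hhex and Cd68 there as well. Cox6a2, a subunit of cytochrome c oxidase, was 5.64 in replicate 2 and 0.83 to 3.59 elsewhere. Fkbp1b, a binding protein of calcium release channels, was 7.42 in replicate 2 and 6.07 to 6.57 elsewhere.

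Among genes with a negative slope, Tagln3 and Zfp750 were at 0 in replicate 2 and between 2.23 and 4.14 in the other libraries. Gbp4, an interferon-induced GTPase, was 3.31 in replicate 2 and 4.51 to 5.45 elsewhere. Aass, Amy2b and Angptl7 on the positive side and Chsy3 on the negative side had a slope of the opposite sign without replicates 2 and 3. Of the 4-gene mean's relations to other lists, that of 20 mature β-cell genes had a median rho of 0.362, with 14 positive and 6 negative, beside -0.0238 over all genes. Of 7 α-cell genes, 4 had a positive and 3 a negative rho with the 4-gene mean, with a median of 0.0952, and of 10 δ-, PP- and ε-cell genes 7 were positive and 3 negative, with a median of 0.202. Irx2 and Sst were at 0.881 and Gpr119, a lipid-sensing receptor, at -0.857 (exact permutation adjusted p of 1.00 for each).

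Replicate 2 also carried the most exocrine transcript. The mean of the acinar list was 6.70 there and 5.86 in replicate 6, and it was lowest in replicate 5 at 2.35. The summed value of the 34 acinar genes in the table ran from 201 to 4139, with Ptf1a and Amy2a5 at 0 in all 8 libraries. Pnlip, pancreatic lipase, spanned 3.74 to 9.34, and Cpa1, a carboxypeptidase, 2.86 to 8.06. Of 24 tested acinar genes, 9 had a positive slope on the 4-gene mean at an unadjusted limma p under 0.05, beside 0.513% of all genes. Their median rho was only 0.0714, and it was -0.6 without replicates 2 and 3. With the acinar mean taken into account, the partial correlation of Ldb1 with the 4-gene mean was 0.495 beside the plain r of 0.317, and the part of exocrine RNA in the other results was not tested.

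The spread of single genes was modest for most and wide for a few. The SD over the 8 libraries had a median of 0.319, with quartiles of 0.217 and 0.468. It was under 0.25 for 3896 genes (33.3%) and at least 1 for 282 (2.41%). The spread depended on level, with a median SD of 0.661 in the lowest decile of genes by mean and 0.228 in the highest. Slc2a2 (SD 0.84), Ins1 (0.93) and Ucn3 (0.54) lay above their decile, as did the mature β-cell list with a median of 1.42 times the SD of genes of like level. The acinar list had 3.19 times and the immediate-early and stress list 2.30 times, whereas islet transcription factors had 0.901 times. Acad9, a mitochondrial complex I assembly factor, was the least variable gene with a mean value of at least 100, with levels from 6.60 to 6.69. Nup88, Zc3h14, Cul4a, Rab10, Trim44, Parp12 and Bag5 followed with SDs of at most 0.05.

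Among the widest spreads, some came from 1 library and some split the libraries as depth did. Alox15, an arachidonate lipoxygenase, was 8.09, 0.89, 0, 0, 1.32, 2.28, 0 and 0.72 in replicates 1 to 8, the largest SD at 2.72. Replicate 1, the library with the least Ldb1, thus stood alone for Alox15 and Slc5a10. Rpph1, the RNA subunit of ribonuclease P, was 10.44, 8.59 and 9.40 in replicates 1, 3 and 4 and 13.03 to 13.20 in the other 5. Hist1h4d, a histone H4 gene, was 6.92, 4.84 and 4.97 in replicates 1, 3 and 4 and 9.08 to 9.53 in the others. Scand1, Nrtn and Srp54a were likewise lower in replicates 1, 3 and 4, the shallower libraries, than in the other 5, and the part of depth was not tested. Reads of Srp54a, Rpl29, Hist1h4d and Amy2b may be shared with near-identical copies, so their values are uncertain. Dmbt1, Cela2a and Amy2b, genes of exocrine cells among other sources, followed no such split.

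**Figure D5:**
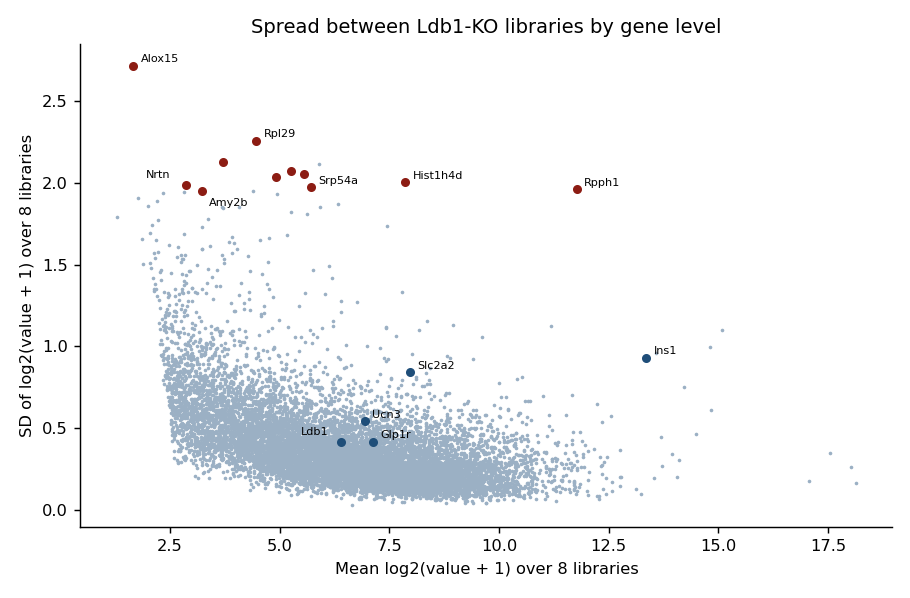
SD of log2(value + 1) over the 8 Ldb1-KO libraries against the mean of log2(value + 1), with 1 grey point per gene for 11690 genes. Red points are 11 of the 12 genes with the largest SD, 7 of them labelled, and blue points are Ldb1 and the 4 β-cell genes, with Ins1 at 0.93 and Ldb1 at 0.42.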

How the data were processed

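RNA of FACS-enriched β-cells was measured after ScriptSeq Complete Gold low-input library preparation, per the labels' protocols. The authors deposited 1 log2 value per gene symbol and library. The labels do not state how it was normalized. The range of the numbers fits log2 of a normalized value plus 1, and that reading is an inference. At the top, libraries share the same values, such as 17.98 and 18.29 for Chgb, so a level there follows the gene's rank in its library. A normalization that gives every library the same set of values would do this, which is likewise an inference. HOMER, edgeR and mm9 stand in the submitters' processing notes without roles, and neither the aligner nor the counter is named (not given in the sources used here). No raw counts were used, so no count test was run and absolute depth is unknown. Depth was judged from the mean step over the lowest 20 distinct values above 0 of each library, which was taken to be smaller in a deeper library. Some values above 0 lie below that mean step, so it is not the exact value of 1 read.

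Samples were grouped by their titles, and 0 columns of per-sample values were left unused in the columns read. Genes with a mean of 2 to the power of the value, minus 1, of at least 5 were tested with limma 3.58.1 (trend and robust settings, statmod 1.5.0) in R 4.3.3, as a slope on the Ldb1 level or on the mean of the 4 genes, adjusted after Benjamini and Hochberg over all genes tested, at a threshold of 0.05. A slope is in log2 units per log2 unit and its error is the moderated SE. Correlations were tested over all 40320 orders of the 8 libraries, two-sided, in Python 3.11.15 with numpy 2.4.6, scipy 1.17.1 and pandas 2.3.3. All p-values were computed here, and the deposited comparisons of the authors, which involve other groups, were not used. Deposited peak lists were not analysed here. In simulated data for the Ldb1 slope over 11689 genes, 39% of 100 genes with a slope of 1 and 80% of 100 with a slope of 2 were recovered, with 6 false calls. The simulated noise was independent between genes, and slopes were given only to genes with a mean log2 level above 5. In the real libraries genes vary together, so these rates need not hold for the real fit.

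The genes, the 22 lists and the tests were chosen with earlier results of these data known. The named genes are a set of islet genes, the 8 genes with the smallest p in each direction of each fit, the 12 with the largest and 8 with the smallest SD, and up to 3 members of each list with the largest rho in size with Ldb1 and with the 4-gene mean. Genes named beside a count or as cell type markers come in addition, and those named with depth as a covariate were chosen after their values were seen. Some genes that this rule takes are left out of the text.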

Additional observations from a re-analysis of the deposited data

Results flagged for a closer look

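Of 82 measures examined (library measures, list means and named genes), 21 had 1 library farther from its neighbour than the limit of 0.526 of the whole range that applies to 8 libraries. Chance flags about 1 in 20 groups, and over all 11690 genes 600 (5.13%) had such a library. The named genes were chosen in part for their spread or their slope, which such a library raises, so the share among them is no result.

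Replicate 2 stood above the others for the mean of the 4 β-cell genes, where its gap was 0.728 of the range, and for Glp1r with 0.546. It was also far above for Fkbp1b (0.629), Aass (0.688) and Pcnt (0.652). It was far below for Tagln3 (0.605), Zfp750 (0.539), BC003965 (0.791), Gbp4 (0.561), Chsy3 (0.592) and Zc3hav1l (0.574). Replicate 2 also had the highest acinar mean, 6.70, and its part in these values was not tested.

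Replicate 1, the library with the lowest Ldb1 level, stood above the others for Rspo4 (0.605), Pdk1 (0.617), Slc5a10 (0.737), Ttr (0.569) and Alox15 (0.718), and for the mean of the glia and neuron genes (0.661). It stood below the others for Rab3b (0.595), Shisa2 (0.723) and Comtd1 (0.613). It was far above in 90 and far below in 106 of all genes tested. Replicate 3 stood below the others for Iapp (0.598), a gene on the coarse ladder of top values.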

How the results depend on the processing

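No paired analysis was possible because all libraries belong to 1 group and no groups were compared. Of 64 recomputed values for the counts of calls, the correlation of Ldb1 with the 4-gene mean and the median SD, 62 stayed on their side of the threshold or, for counts and the median SD, within 1.5 times the reported value. The count of genes related to Ldb1 was 22 with depth as a covariate. Leaving out 1 library in the fit without that covariate gave 0 each time. The fit with depth as a covariate was not recomputed with libraries left out, so how far its 22 calls rest on 1 library was not tested. The count for the 4-gene mean was 0 to 1 when each library was left out, and the 1 gene was Rab6b without replicate 5 (slope -2.83, limma adjusted p = 0.0225). Of the recomputed slopes of named genes, 504 kept sign and side, 6 came past the threshold with depth as a covariate and 5 changed sign. Without the 2 libraries farthest from the median the slopes on the 4-gene mean were -0.738 for Aass, -6.11 for Amy2b, -1.77 for Angptl7 and 0.371 for Chsy3. When each library was left out, the slope ran from -2.36 (without replicate 2) to 3.36 for Amy2b. The cause was not tested. The share of genes at an unadjusted limma p under 0.05 ran from 2.88% to 16.3% for Ldb1 and from 0.685% to 4.55% for the 4-gene mean over the alternatives. The correlation of Ldb1 with the 4-gene mean ran from 0.236 without Ins1 to 0.495 with the acinar mean as a covariate, and from 0.256 to 0.457 over the libraries left out. The median SD ran from 0.267 with a pseudocount of 10 to 0.354 with a minimum mean of 1, and from 0.294 to 0.327 over the libraries left out. With 8 libraries, the smaller slopes cannot be told from noise, and the unknown absolute depth leaves no counting error for any value.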
